A study of Mus musculus with 4 samples.

Results

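The kinesin, dynein and myosin motors examined here were 47 polyA sites with 39 gene names, out of 9297 sites and 7202 gene names in the tag table of CA1 neuropil. They were chosen by gene symbol alone, as the sites whose name began with Kif, Klc, Dync, Dynl, Dctn or Myo followed by a number or subunit letter. The rule itself uses no measured value. GENCODE vM21 holds 90 protein-coding genes with such symbols, of which the table listed 17 of 43 kinesins and kinesin light chains, 12 of 22 dynein and dynactin subunits, and 10 of 25 myosins. The symbol rule also took in Kif1bp, which encodes a kinesin-binding protein and not a motor, and it is counted with the kinesins.

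Motor proteins move cargo along the cytoskeleton. Most kinesins step along microtubules toward their plus ends, cytoplasmic dynein with its cofactor dynactin steps toward the minus ends, and myosins pull on actin filaments. The microtubules of dendrites point in both directions, so both kinds of microtubule motor can carry receptors, endosomes, mitochondria and mRNA granules into and out of a dendrite, and myosins act at the actin-rich base and head of spines.

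The study isolated 3′ ends of mRNAs from the CA1 neuropil, the layer of the hippocampus that holds the dendrites of pyramidal neurons beside axons and glia. All 4 libraries belonged to 1 group, C57BL/6 mice with the genotype Camk2a-Cre x Pabpc1- cTag, and were numbered as replicates 1 to 4. In these mice Cre driven by the Camk2a promoter makes excitatory neurons fuse GFP to Pabpc1, which coats poly(A) tails, and fragments (tags) crosslinked to that protein were counted by cTag-PAPERCLIP at each polyA site. Each library pooled several mice, the labels gave no age or treatment, and no other compartment or genotype was analysed here, so every value below describes the neuropil alone.

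The table, by its name, holds neuropil tags that overlap a set of peaks called Camk, so totals and shares of a library cover only those tags. Replicates 1 to 4 held 16017, 6609, 5947 and 6099 tags, and a count of 0 allowed a share of up to 0.0187%, 0.0454%, 0.0504% and 0.0492% of tags, the limit that 3 tags set. The Wilson intervals given for single values reach higher at a count of 0, to between 0.0240% and 0.0646%. A single site named Hdac8 took 25.2% of replicate 1 and from 0.0151% to 2.25% of the others, so shares are also given without it where that changed a result. Of 10 pyramidal neuron marker genes 8 carried tags, at 0.318% to 0.607% of a library, while Camk2a and Slc17a7 had no site under those names among the rows analysed. Glial markers were present as well, with 7 of 7 astrocyte genes (0.0757% to 0.237%), 6 of 6 oligodendrocyte genes (0.131% to 0.545%) and 3 of 7 microglia genes (0% to 0.0605%), and 4 of 7 interneuron genes carried 0.0303% to 0.246%. Shares of the pyramidal, astrocyte and interneuron genes were lowest in replicate 2, where those of the oligodendrocyte and microglia genes were highest. The oligodendrocyte share was lowest in replicate 4. The part of these cell types in the motor values was not tested, and in pooled tissue fewer cells of a type and less RNA per cell cannot be told apart.

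The 3′ ends on which the results turn are shown first, each as the 30 bases from 15 before to 14 after the listed position, read 5′ to 3′ on the strand of the mRNA from the RefSeq copy of GRCm38. Capitals mark AATAAA or ATTAAA, the hexamers that direct cleavage and polyadenylation. The listed position lies before the annotated transcript end, by 19 bases at distal Kif5a and 26 at Dynll2. Each window shown stops short of that end. The first group is the kinesin heavy chains with several sites, of which the distal site of Kif5a carried most motor tags.
Kif5a distal, chr10:127225701-127225730, minus strand: acaaatatctttaaAATAAAataacttcga
Kif5a middle, chr10:127226493-127226522, minus strand: acacttcagAATAAAtctgatgactaagca
Kif5a proximal, chr10:127228267-127228296, minus strand: tactctgtatctatctatcagaagctgctg
Kif1a distal, chr1:93015469-93015498, minus strand: tgtccaattaagaAATAAAtgtggctctca
Kif1a proximal, chr1:93018289-93018318, minus strand: agggaggcctataccacatgacgaattgtg

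The second group is the ends that carried most dynein light chain tags, and the pairs of ends of Klc1 and Myo5a, which lie in separate last exons in Klc1 and in a single 3′UTR in Myo5a.
Dynll1, chr5:115298435-115298464, minus strand: tcccttaggtcattcctttaaaAATAAAtc
Dynll2, chr11:87979537-87979566, minus strand: acgcctcttttggacATTAAAggtcgattg
Dynlrb1, chr2:155250239-155250268, plus strand: ttttgttttttaaagtaaaaattacttcaa
Klc1 upstream exon, chr12:111794861-111794890, plus strand: gtgtctttctaacttctAATAAActcactc
Klc1 downstream exon, chr12:111806665-111806694, plus strand: ttattgtacattttttaaaaaaaaATTAAA
Myo5a proximal, chr9:75219443-75219472, plus strand: gataaatactgttATTAAAcaacaattatt
Myo5a distal, chr9:75223647-75223676, plus strand: attgtagaaaattgttgaAATAAAgataag

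Motor sites carried 523 of the 34672 tags. Their share of a library was 1.42% in replicate 1, 2.83% in replicate 2, 0.908% in replicate 3 and 0.902% in replicate 4, a mean of 1.51% ± 0.910 (SD, n = 4), for 0.542% of the gene names. Replicates 1 and 2 were high and replicates 3 and 4 low, with 95% Wilson intervals of 1.25% to 1.61% and 2.46% to 3.26% against 0.697% to 1.18% and 0.694% to 1.17%. Kif5a, a heavy chain of conventional kinesin that is made mainly in neurons, accounted for 325 of the 523 tags (62.1%). Without Kif5a the motor share was 0.406%, 0.726%, 0.706% and 0.705%, a mean of 0.636% ± 0.154. With the Hdac8 site left out of the totals these were 0.542%, 0.726%, 0.723% and 0.717%, and the interval of replicate 1 (0.426% to 0.690%) overlapped all others. The median was 2 tags per gene for motor genes and for all genes. Genes with at least 10 tags made up 20.5% of the motor genes (8 of 39) and 7.40% of all genes, and genes with 1 tag made up 41.0% and 43.7%.

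**Figure D1:**
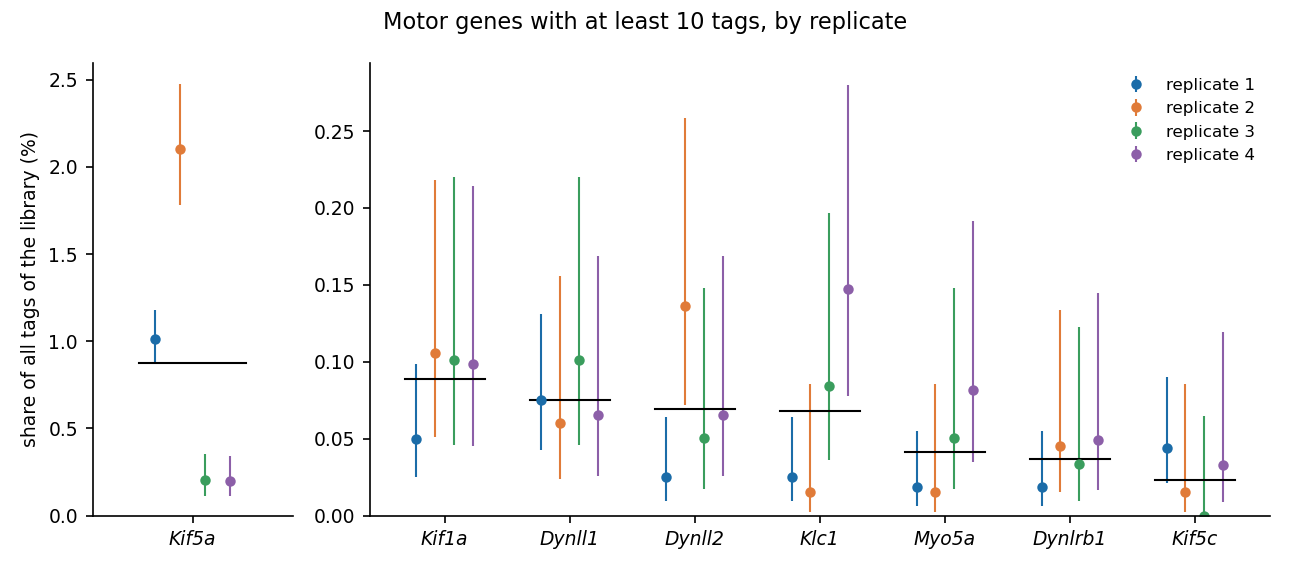
Share of all tags of a library (%, linear axes that start at 0, with separate scales for Kif5a and the rest) for the 8 motor genes with at least 10 tags. Points are replicates 1 to 4 with 95% Wilson intervals and black lines are means. Kif5a runs from 0.197% to 2.10%, while no other gene exceeds 0.148% in any replicate.

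Kif5a had 162 tags in replicate 1, 139 in replicate 2, 12 in replicate 3 and 12 in replicate 4, or 1.01%, 2.10%, 0.202% and 0.197% of tags. By mean share (0.878% ± 0.902, SD, n = 4) it ranked 5 among all 7202 gene names, and by library it ranked 4, 2, 33 and 44. Replicates 1 and 2 lay above both other libraries with no overlap of intervals (0.868% to 1.18% and 1.78% to 2.48%, against 0.115% to 0.352% and 0.113% to 0.344%). The same split appeared within the motor genes, where no library total enters. Kif5a made up 71.4% and 74.3% of the motor tags of replicates 1 and 2, and 22.2% and 21.8% of those of replicates 3 and 4. Its tags were not spread over the libraries as the library totals were (exact multinomial test, adjusted p = 6.07e-36 over 211 genes with at least 20 tags). Such inequality was common in these libraries, since 69.7% of the 211 genes had an adjusted p under 0.05, and in 84 of them (39.8%) the share was higher in both replicates 1 and 2 than in either other replicate, as for Kif5a. The test compares libraries and treats tags as independent molecules, so amplification would also lower p. Without replicate 2 the mean share of Kif5a was 0.470%.

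The other heavy chains of conventional kinesin were far behind. Kif5c, also a neuronal form, had 7, 1, 0 and 2 tags, and Kif5b, the form made in most tissues, had 1 tag, in replicate 3. The interval of Kif5c lay below that of Kif5a in replicates 1 to 3 and overlapped it in replicate 4. The Kif5b tag lay at a 40-base sequence with 330 exact copies in the assembly, so it cannot be assigned to that gene. Tags were counted at 3′ ends and not along the mRNA, so no length correction was made, and differences in recovery or amplification between sites were not tested. The light chains, which link these heavy chains to cargo, were recovered in 4 libraries for Klc1 (4, 1, 5 and 9 tags) and in 3 for Klc2 (1, 4, 1 and 0 tags). Klc1 shares were 0.0250%, 0.0151%, 0.0841% and 0.148%, and apart from replicates 1 and 4 the intervals of all pairs overlapped, with 1 tag in replicate 2. Klc1 had 19 tags and fell below the 20 needed for the test, and with a minimum of 10 tags its adjusted p was 0.00829 (exact multinomial test), where 215 of the 533 genes tested were called. Of the 211 genes with at least 20 tags, 63 (29.9%) had a higher share in both replicates 3 and 4 than in either other replicate. Its mean share was 0.0679% ± 0.0612, and the mean was 0.0414% without replicate 4.

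Kif1a, which carries synaptic vesicle precursors and dense-core vesicles, had 8, 7, 6 and 6 tags. Its shares were 0.0499%, 0.106%, 0.101% and 0.0984%, a mean of 0.0888% ± 0.0261 (SD, n = 4), and the intervals of all replicates overlapped. The exact multinomial test gave an adjusted p of 0.334, which does not show that the libraries were equal. Its relative Kif1b had 3, 3, 0 and 0 tags. Kif1bp, whose product binds both of these kinesins, had 2, 1, 0 and 1 tags. The counts of Kif21a (2, 0, 2 and 2 tags) and Kif21b (0, 1, 0 and 1 tags), kinesins that restrain microtubule growth, were too low to order the libraries.

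The remaining kinesins had from 1 to 4 tags, and several of their sites did not locate a kinesin mRNA. The 4 tags named Kif16b, an endosomal kinesin, lay between annotated genes, 1662 kb downstream of Kif16b (chromosome 2, position 140955239, minus strand). The Kif2b tag lay 828 kb past its gene in a sequence with 25 exact copies. The tag named Kif17, a kinesin known for carrying NMDA receptor subunits in dendrites, lay within the span of Kif17 but in the 3′UTR of Sh2d5 on the same strand (chromosome 4, position 138260947). The Kif3a tag lay 2.25 kb past the end of its gene, with AATAAA starting 2 bases before it. Together with Kif5b these were 5 sites and 8 tags. The other 42 motor sites, with 515 tags, lay in the named gene at a sequence with 1 copy in the assembly. Kif9, Kif26a and Kif26b had 1 tag each.

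Dynein and dynactin subunits carried 85 tags, as 28, 21, 19 and 17, or 0.175%, 0.318%, 0.319% and 0.279% of a library. Without the Hdac8 site in the totals replicate 1 was at 0.234% beside 0.283% to 0.327%, and the intervals of all replicates overlapped with either total. The largest contributions came from the light chains that bind cargo and adaptors. Dynll1 had 12, 4, 6 and 4 tags (0.0755% ± 0.0180, SD, n = 4), and its intervals overlapped in all replicates (exact multinomial test, adjusted p = 0.872). Dynll2, which encodes a closely related light chain, had 4, 9, 3 and 4 tags (0.0693% ± 0.0476), highest in replicate 2. Its adjusted p was 0.0307 (exact multinomial test), but 0.117 when the Hdac8 site was left out of the library totals and 0.127 with totals over annotated 3′UTRs, so the call rests on the denominator. The 40 bases ending at each of these sites had 1 exact copy in the assembly, and near matches were not searched. Dynlrb1, a roadblock light chain, had 3, 3, 2 and 3 tags.

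The catalytic and core subunits had few tags. Dync1h1, the motor heavy chain, had 0, 0, 2 and 1 tags. The intermediate chains Dync1i1 and Dync1i2 had 1, 1, 1 and 2 tags and 1, 0, 0 and 1 tags, and the light intermediate chains Dync1li1 and Dync1li2 had 1, 1, 2 and 0 tags and 0, 1, 1 and 0 tags. Dynlt3 had 1, 1, 1 and 0 tags. Of dynactin, the complex that activates dynein and links it to cargo, Dctn3 had 1, 1, 0 and 2 tags, Dctn6 had 3, 0, 1 and 0, and Dctn5 had 1 tag. All of these were at or below 3 tags in each library, where single genes could not be compared at this depth.

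Myosins were the thinnest of the families, with 22 tags over 10 genes, 7, 5, 5 and 5 by library. Myo5a, which moves membrane cargo along actin in dendrites and into spines, held 12 of them, as 3, 1, 3 and 5 tags (0.0416% ± 0.0313, SD, n = 4). Its share was highest in replicate 4 (0.0820%) and lowest in replicate 2 (0.0151%), and all intervals overlapped. Of the others, 8 had 1 tag each: Myo6, the myosin that moves toward the minus ends of actin, Myo10 of filopodia, the membrane-linked Myo1c and Myo1d, the RhoGAP-bearing Myo9a and Myo9b, and Myo16 and Myo18a. The Myo1d tag lay in an intron.

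**Figure D2:**
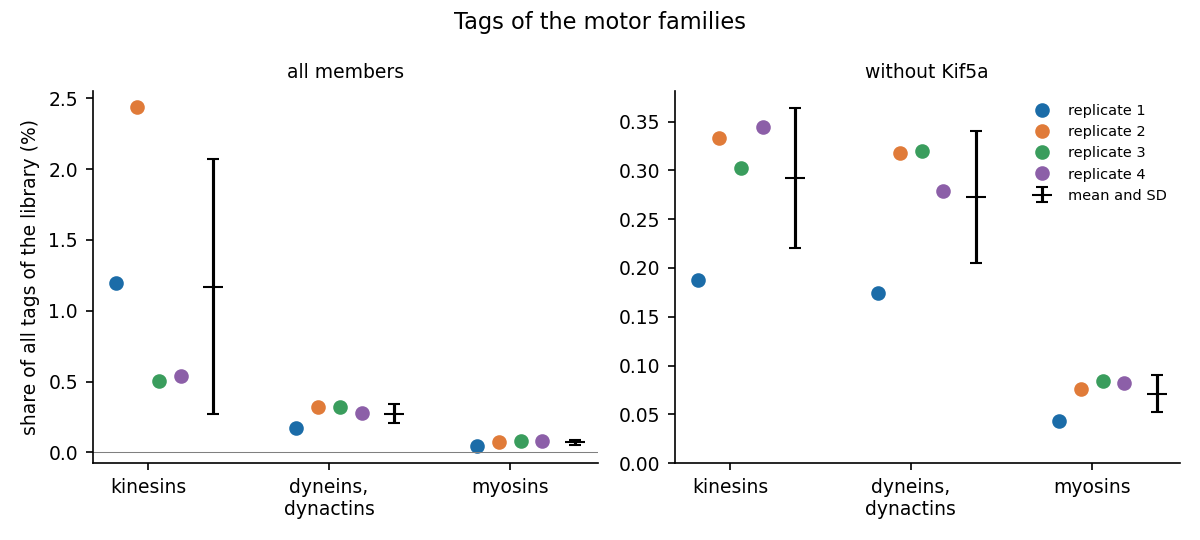
Share of all tags of a library (%) for kinesins with light chains, dyneins with dynactins, and myosins, with all members (left) and without Kif5a (right, other scale). Coloured points are replicates 1 to 4 and black bars are mean and SD (n = 4). With Kif5a the kinesins reach 2.44% in replicate 2, and without it kinesins and dyneins both lie between 0.175% and 0.344%.

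Set against each other within a library, kinesins carried more tags than dyneins in 4 of 4 replicates, with log2 ratios of 2.73, 2.88, 0.63 and 0.92 (mean 1.79 ± 1.18, SD). The exact sign-flip permutation test over 4 replicates gave p = 0.13, two-sided, which is the smallest it can give, and the adjusted p over 3 pairs of families was also 0.13. Without Kif5a the mean log2 ratio was 0.09 ± 0.15, above 0 in 3 of 4 replicates (exact sign-flip permutation test, p = 0.375), so kinesin and dynein tags were then nearly equal in number, at 91 and 85. Dyneins exceeded myosins by 1.86, 1.87, 1.74 and 1.58 on the log2 scale (mean 1.76 ± 0.13), with the smallest SD of the 3 ratios. Kinesins exceeded myosins by 3.55 ± 1.29, and by 1.86 ± 0.13 without Kif5a. For both pairs with myosins the exact permutation p was 0.13.

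**Figure D3:**
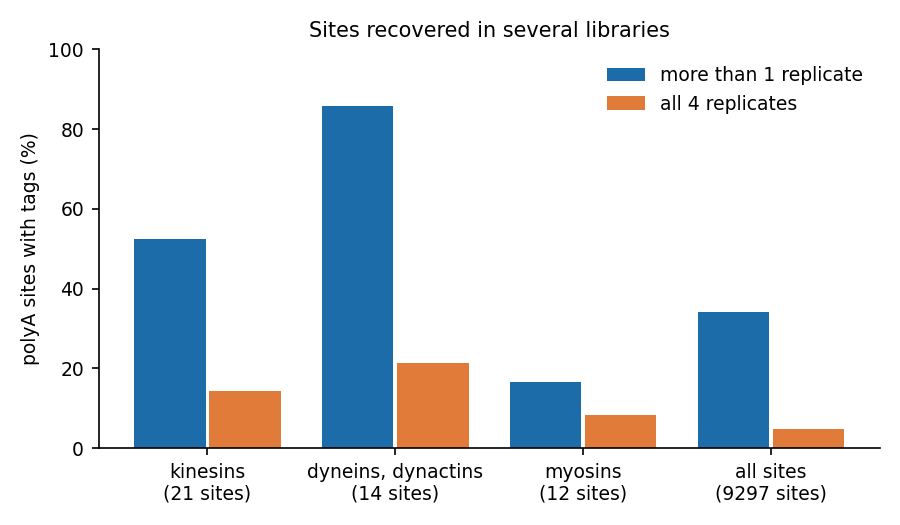
Percent of polyA sites with tags in more than 1 replicate (blue) and in all 4 replicates (orange), for the motor families and for all sites of the table, on an axis from 0 to 100. Dynein and dynactin sites reach 85.7% in more than 1 replicate, kinesin sites 52.4%, myosin sites 16.7% and all sites 34.2%.

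For its neuropil libraries the study considered peaks with tags in more than 1 experiment. It also took whole-cell peaks by tag count and filtered the resulting 3′UTRs further, so this was only part of its selection. By the neuropil rule alone 25 of 47 motor sites (53.2%) qualified, beside 34.2% of all sites. Of dynein and dynactin sites 12 of 14 (85.7%) had tags in more than 1 replicate, and of kinesin sites 11 of 21, but of myosin sites 2 of 12 (16.7%), both of Myo5a. Tags in all 4 replicates were found at 7 motor sites, beside 4.9% of all sites. These were the distal or only sites of Dynll1, Dynll2, Dynlrb1, Kif1a, Kif5a and Myo5a and the upstream site of Klc1. By gene, 23 of 39 had tags in more than 1 replicate, beside 47.4% of all genes, and 8 had tags in all 4, beside 7.76%. For motor sites this count restates tag number, since the 22 sites outside it (46.8%) were those with 1 tag, which cannot be seen in more than 1 library. Sites with 1 tag were 10 of 21 for kinesins, 2 of 14 for dyneins and dynactins, 10 of 12 for myosins and 57.2% of all sites, and the difference between families was not tested.

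In the annotation, 42 of 47 motor sites lay in a 3′UTR, beside 76.5% of all sites, 2 in introns and 3 between genes. By tags, 99.6%, 97.9%, 92.6% and 100% of motor tags in replicates 1 to 4 lay in 3′UTRs (97.5% ± 3.40, SD, n = 4). Over the whole table the share was 73.8% ± 9.29, with replicate 1 lowest at 60.9%. Of the 42 sites in 3′UTRs, 29 lay within 30 bases before the end of an annotated transcript (69.0%, against 67.1% of all 3′UTR sites), at a median distance of 23 bases. The 3′UTR up to the site, spliced and counted from the last coding base before the stop codon, had a median of 1195 bases for motor sites and 1039 for all 3′UTR sites. Dynein and dynactin ends were short, with a median of 512 bases (207 to 2881), against 1426 for kinesins (157 to 4782) and 1379 for myosins (1081 to 5672).

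AATAAA or ATTAAA was found within 50 bases on either side of 38 motor sites (80.9%, 95% Wilson interval 67.5% to 89.6%), beside 78.1% of all sites. In the sequences above it starts 1 base before the listed position in the distal Kif5a site and 7 bases after it in Dynll1. Among the 38 sites, the signal nearest to the listed position started between 15 bases before and 10 bases after it in 37. All sites with a signal gave 90.8% in that window. Of the 9 motor sites without either hexamer, 5 had 1 of 10 weaker variants in the window, among them Dynlrb1, which had tags in all 4 replicates. The proximal sites of Kif5a and Kif1a had neither kind of hexamer. TTTTAT or TTTTAAT, forms of the cytoplasmic polyadenylation element through which the length of the poly(A) tail is controlled, was found in the 100 bases before 4 motor sites (8.51%, Wilson interval 3.36% to 19.9%), beside 19.7% of all sites on the strand of the site. The 4 were Kif21a, the downstream site of Klc1, the distal site of Myo5a, and Myo6. GC content within 100 bases on either side had a median of 40.3% at motor sites and 37.3% at all sites.

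**Figure D4:**
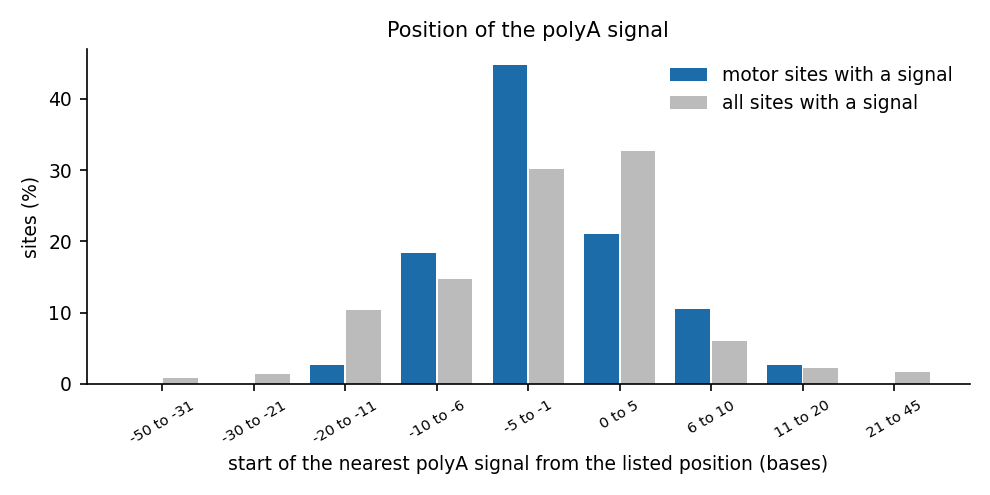
Percent of sites by the distance (bases) from the listed position to the start of the nearest AATAAA or ATTAAA, for 38 motor sites (blue) and all sites with a signal (grey), in bins of unequal width. Most motor signals start from 5 bases before to 5 bases after the listed position, at 44.7% in the bin just before it and 21.1% in the bin from 0 to 5.

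**Figure D5:**
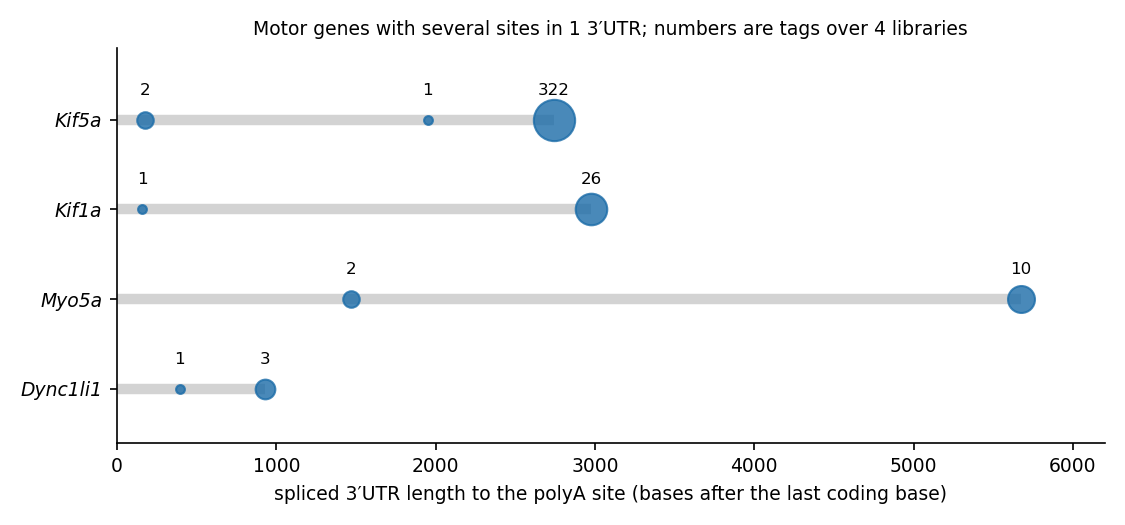
PolyA sites of 4 motor genes with several sites in a single 3′UTR, placed by spliced 3′UTR length in bases after the last coding base. Circle area grows with log2 of the tags and the numbers are tags summed over 4 libraries. The longest form holds 322 of 325 tags of Kif5a, 26 of 27 of Kif1a and 10 of 12 of Myo5a.

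The study asked which 3′UTR forms differ in localization between neuropil and cell bodies, which neuropil tags alone cannot show. Within the neuropil, 7 motor genes had more than 1 site. In Kif5a the distal site, with a 3′UTR of 2743 bases, held 162, 139, 11 and 10 tags. The proximal site (177 bases) held 0, 0, 1 and 1, and the middle site (1951 bases) had 1 tag, in replicate 4. In Kif1a the distal site (2977 bases) held 8, 7, 5 and 6 tags and the proximal site (157 bases) 1 tag, in replicate 3. In Myo5a the distal site (5672 bases, the longest 3′UTR of any motor site) held 2, 1, 2 and 5 tags and the proximal site (1468 bases) 1, 0, 1 and 0. The long form thus held 99.1%, 96.3% and 83.3% of the tags of these genes, and the few proximal tags were too thin to compare libraries.

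Klc1 showed the opposite order. Its upstream site (chromosome 12, position 111794876, plus strand) held 4, 1, 5 and 8 tags, and the site 11.8 kb downstream (position 111806680) held 1 tag, in replicate 4. These sites lie in different last exons, at 111794337 to 111794895 and 111806315 to 111806727. The coding sequences of the annotated transcripts end at 111793678 and 111806074, so by annotation they differ in C-terminal coding sequence and not only in 3′UTR. Tags at 3′ ends do not show which coding exons an mRNA holds, and the downstream site rests on 1 tag. Dync1i1 had 2 tags (replicates 2 and 3) in an intron 167 kb before the end of the gene, with no AATAAA or ATTAAA in the window, and 3 tags (1, 0, 0 and 2) at its 3′UTR end. Dync1li1 had 1 proximal and 3 distal tags.

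Summed over the 7 genes, the most distal sites held 174, 148, 20 and 24 tags and the most proximal 6, 3, 9 and 9, log2 ratios of 4.64, 5.22, 1.07 and 1.32 with a pseudocount of 1. The mean was 3.06 ± 2.17 (SD, n = 4), above 0 in 4 of 4 replicates, and the exact sign-flip permutation test gave the smallest p it can, p = 0.13. Kif5a set the size of this ratio and its spread between libraries. Without Kif5a the log2 ratios were 0.89, 1.32, 0.15 and 0.74 (mean 0.78 ± 0.48, exact permutation p = 0.13). Leaving out replicate 4, which removes the downstream Klc1 site and with it Klc1, gave a mean of 4.52, and leaving out replicate 2 gave 2.34.

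Proteins that work with these motors were described from a separate list of 48 genes, of which 31 carried 376 tags, or 1.10% ± 0.170 of a library (SD, n = 4). Calm3 and Calm2 encode calmodulin, a light chain of myosin V among many other roles, and had 39, 17, 3 and 12 tags and 16, 5, 9 and 13 tags. Kifc2, a minus-end kinesin that the symbol rule did not cover, had 13, 12, 2 and 2 tags, and Kifap3, which joins the heterotrimeric kinesin to cargo, had 5, 2, 5 and 4. The shares of Kifc2 were 0.0812%, 0.182%, 0.0336% and 0.0328%, with 2 tags in each of the last pair of libraries. Of the 4 partner genes with at least 20 tags, 3 had unequal tags between libraries, beside 69.7% of all genes tested (exact multinomial test, adjusted p = 0.0185 for Calm3 and 0.0307 for Kifc2 among them). The dynein regulators Pafah1b1, Nde1, Ndel1, Bicd1, Bicdl1, Hook1 and Hook3 had from 1 to 7 tags in all.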

How the data were processed

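The authors mapped cTag-PAPERCLIP tags to the genome, clustered them into polyA sites with the CTK package and deposited raw tag counts per 1-base site, strand and gene name. The submitters' processing notes name cutadapt, Novoalign and mm10. Whether duplicate tags were collapsed and how multiply mapping tags were placed is not given in the sources used here. All 9294 chromosomal positions fitted within the GRCm38 (mm10) chromosome lengths, and 44 of 47 motor sites lay inside the vM21 gene of the same name and strand.

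Computed here from the counts (Python 3.11.15, numpy 2.4.6, scipy 1.17.1) were shares of a library's tags with 95% Wilson intervals, and an exact multinomial test of each gene with at least 20 tags against the library totals, adjusted over all 211 genes by Benjamini-Hochberg, with the chi-square approximation above 400 tags. It was tested on simulated counts with set changes and counting error alone. Those held no further spread between libraries, whereas 69.7% of the 211 genes tested here were called unequal. Log2 ratios were compared with 0 by an exact permutation test that flips the signs of the 4 replicates. Intervals, limits and the multinomial test cover counting error only. Nothing in the labels says how far the replicates are separate animals, so the sign-flip p-values measure only the spread between these libraries. Multinomial p-values hold no estimate of that spread. Sites were classed from GENCODE vM21, and the 40 bases ending at a motor site were searched for exact copies on both strands. The variant hexamers were AGTAAA or TATAAA or CATAAA or GATAAA or AATATA or AATACA or AATAGA or ACTAAA or AAGAAA or AATGAA, all read on the strand of the site.

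Genes to be described were Kif5a and Myo5a, motor genes with at least 10 tags or an adjusted p under 0.05, those with several sites in more than 1 replicate, and the leading gene of each family. Others are given by counts or were named after their values were seen, and some members are counted in totals but not reported singly here. The motor genes, partner genes and marker lists were chosen with earlier results of these data known. Alternatives covered the denominator, sites in more than 1 replicate, tag minimum, pseudocount, Kif5a, gene names and leaving out each replicate.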

Additional observations from a re-analysis of the deposited data

Results flagged for a closer look

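Dixon gaps were computed for 16 sets of 4 motor values, and 1 exceeded the 95% critical value, where chance flags about 1 in 20, or 0.8 of 16. This was the share of Kif1a, at 0.0499% in replicate 1 against 0.0984% to 0.106% in replicates 2 to 4, a gap of 0.865 of the range. Without the Hdac8 site in the totals the shares were 0.0667% against 0.1% to 0.106%, a gap of 0.849. The gap comes from 8 tags in replicate 1 and from 6 to 7 in the others.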

How the results depend on the processing

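The comparisons were recomputed under 68 alternatives, of which 57 left a tested value on the same side, an untested one within the replicate SD, or a count within 1.5 times, and none turned a direction. The counts and the share that moved beyond these limits are given here, with the ranges without any 1 replicate. Motor sites in more than 1 replicate were 25, but 7 with tags required in all replicates and 10 with at least 2 tags in more than 1 replicate, and 18 to 20 without any 1 replicate. Motor genes with unequal tags between libraries were 2 of 4 tested (Kif5a and Dynll2), but 1, Kif5a, of 1 tested with at least 50 tags, and 1 of 4 with the Hdac8 site left out of the totals and with totals over annotated 3′UTRs (an alternative added after seeing the data, as were the values of single genes without a replicate). It was also 1, of 1 tested without replicate 1 and of 3 tested without any other, since Dynll2 has 20 tags and then drops below the minimum. Over all genes the count was 147 of 211 tested, but 48 of 56 with at least 50 tags, 96 of 162 with 3′UTR totals, and 84 of 112, 83 of 137, 108 of 158 and 98 of 145 without replicates 1 to 4 in turn, so the number tested moved as well. The polyA signal share of 80.9% was 25.5% when only the 50 bases upstream were searched, where the listed positions leave most signals outside. Partner genes with tags were 31, or 17 at sites in more than 1 replicate, and 25 to 29 without any 1 replicate. The adjusted p of Kif5a ran from 4.56e-38 to 2.03e-16 over its alternatives. The motor share of 1.51% was 0.636% without Kif5a and 1.89% over sites in more than 1 replicate. No paired comparison of conditions was possible because all replicates belong to 1 group. At this depth the interval of a gene with 3 tags or fewer in a library is wide against its share.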
